A study of Mus musculus with 12 samples.

Results

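The genes described here carry glucose into the cell, break it down to pyruvate and lactate, store it as glycogen, and pass pyruvate into the mitochondrion. They are 42 members chosen by symbol, and the question was how isoforms typical of muscle moved beside the general isoforms of the same enzymes as C2C12 myoblasts became myotubes. Each gene was read on its brightest probe over all 12 arrays. A probe assigned to 1 gene existed for 39 members, and 36 of them passed a filter on dim probes, among 11883 genes tested. Hk2, Gpi1 and Eno1 had no probe assigned to them alone, and Gbe1, Phkg1 and Slc16a1 lay below the filter, so these 6 have no test.

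C2C12 is an established line of mouse myoblasts, the precursor cells of muscle fibres, so all samples are of 1 line. The stages were sampled with 3 arrays each: myoblasts at 50% and at 95% confluence, kept in DMEM with BCS, and myotubes after 24 h and after 48 h in DMEM with heat-inactivated horse serum, insulin and transferrin. Myotubes and myoblasts therefore differed in medium as well as in stage, and these cannot be told apart. The labels number the replicates without saying whether they were separate cultures, so a p-value here sets a difference against the spread of these samples, which may be technical.

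Levels are normalized log2 signals in arbitrary units, around a median of 6.684 on each array, and a difference of 1 stands for 2-fold if that scale is a plain log2. The scale may compress dim signals, so changes of dim genes can be understated. Array 3 of the 95% stage stood apart: its residual SD over all genes was 0.196, against 0.0576 to 0.129 for the other 11 arrays. Results that turn on that array are given with and without it. Of the muscle markers, 8 of 8 passed the filter. Their summed signal, on the log2 scale, was 13.5 to 13.9 on the 50% arrays, 12.6 to 13.3 on the 95% arrays and 16.1 to 17.2 on the myotube arrays. From 50% to 95% confluence 6 of the 8 fell and 0 rose (median log2 change -0.88), where 21% of all genes fell. Without array 3 of the 95% stage 5 fell and 1 rose. The 50% baseline therefore held more signal of these markers than the 95% stage. Markers of other cell types passed in 1 of 4 cases for adipocytes, 2 of 4 for osteoblasts, 2 of 3 for endothelium, 1 of 3 for leukocytes and 0 of 2 for hepatocytes, with no group mean above 7.02; of these, the osteoblast marker Sp7 was lower by 0.41 and the endothelial marker Tek higher by 0.17 at 48 h than at 50%, and their part in the results was not tested. RNA came from whole cultures, so fewer cells of a type and less RNA per cell cannot be told apart, and the share of cells that had fused is not given in the labels.

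Glycolysis splits glucose into a pair of pyruvate molecules, which are either reduced to lactate or oxidized to acetyl-CoA by the pyruvate dehydrogenase complex of the mitochondrial matrix. Muscle stores glucose as glycogen and, in contraction, releases it through glycogen phosphorylase into the same pathway. Several steps have an isoform encoded by a gene used mainly in striated muscle, such as Pfkm, Pgam2, Eno3 and Pygm, beside isoforms used in most or in other tissues. Inherited loss of PFKM, PGAM2, ENO3 or PYGM in humans causes muscle glycogen storage disease.

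Over the whole course, from 50% myoblasts to 48 h myotubes, 19 of the 36 tested members rose and 8 fell (limma, adjusted p under 0.05). Among all genes tested 26.5% rose and 29.9% fell in that comparison, so the members' share of rises was 52.8% and their share of falls 22.2%. The median log2 change of the members was 0.34, beside -0.01 for all genes. The muscle isoforms accounted for 7 of the 19 rises and none of the 8 falls: of the 8 tested (Slc2a4, Pfkm, Pgam2, Eno3, Fbp2, Pygm, Gys1 and Phka1), all but Fbp2 rose, with a median of 0.77. That list leaves out Ldha, Aldoa and Slc16a3, which stand as the muscle-type partner in the isoform pairs described later; of these Aldoa rose, Ldha was among the 8 falls and Slc16a3 did not pass. The 28 other members gave 12 rises and 8 falls, with a median of 0.01. Members and lists were chosen with earlier results of these data known, so this contrast is a description with no test.

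The steps of the course differed in what they held. From 95% myoblasts to 24 h myotubes 7 members rose and 7 fell, where 15.9% and 21.3% of all genes did. From 24 h to 48 h in differentiation medium 11 rose and 9 fell, against backgrounds of 22.8% and 22.1%, and here 7 of the 8 listed muscle isoforms rose and none of the 8 fell, while Ldha, outside that list, fell. From 50% to 95% confluence 14 members rose and 2 fell, against 18.9% and 21.0% of all genes. The falls were those of Pdk4 (-0.38, adjusted p = 0.0060) and Pkm (-0.22, adjusted p = 0.0174). Those that rose were 12 of the 28 members outside the muscle list (42.9%) and 2 of the 8 on it (25%). Without array 3 of the 95% stage the rises and falls of all members were 7 and 9, 13 and 13, and 16 and 2 in the same order. The 16 rises were then 13 outside the muscle list and 3 on it. Without array 1 of that stage 9 members rose with confluence, and without array 3 of the 50% stage 1 fell. In the test for a change at any stage 29 of the 36 members passed, beside 72.2% of all genes. The 7 that did not pass were Slc2a3, Pfkfb3, Ldhb, Fbp2, Pygl, Ppp1r3c and Slc16a3, none with a stage mean above 7.03. Of the 36 members, 30 were above the array median in all 4 stages and 6 in only some of them. Slc2a4, Aldoc, Pygm and Pdk2 passed the filter through the stages in which they were high, so a difference in these genes was partly built into their selection.

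**Figure D1:**
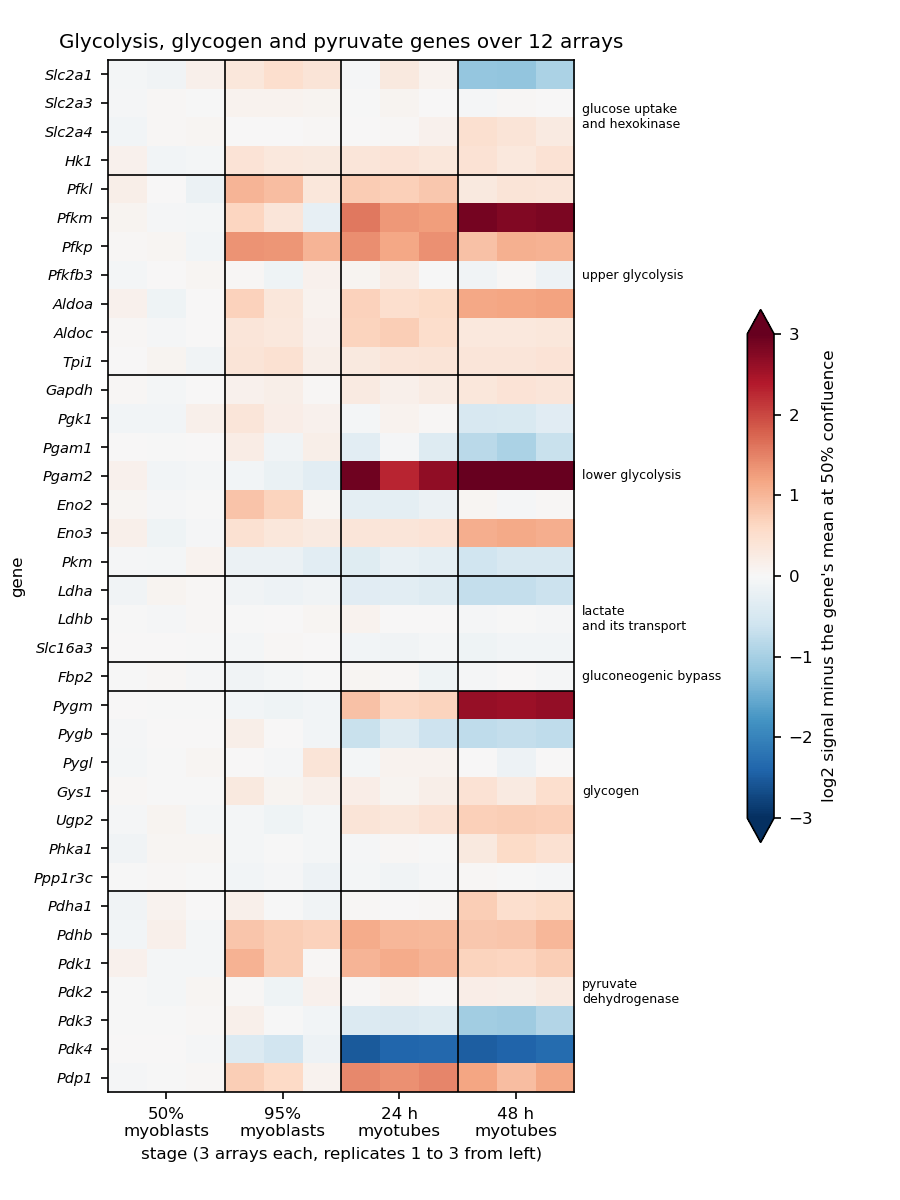
Log2 signal of the 36 tested members (rows, grouped by role) on the 12 arrays (columns, 3 for each stage), drawn as the difference from each gene's mean at 50% confluence; red is higher, blue is lower, and colours end at 3 in either direction. Pgam2, Pfkm and Pygm turn red at 24 h and darker at 48 h, Pdk4 turns blue at 24 h, and array 3 of the 95% stage differs from the other 95% arrays in Pfkm, Pfkl, Eno2, Pdk1 and Pdp1.

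Glucose enters through facilitative transporters and is trapped by hexokinase. Slc2a1, the transporter of basal glucose uptake (GLUT1), was the most altered member of this group. It read 11.46, 11.42 and 11.68 on the 50% arrays, 11.86, 12.02 and 11.90 at 95%, 11.49, 11.82 and 11.62 at 24 h, and 10.36, 10.35 and 10.58 at 48 h. All 3 arrays at 48 h lay below every array of the other stages. The fall from 24 h to 48 h was -1.21 ± 0.10 (log2 change ± SE, adjusted p = 1.19e-06), and 48 h myotubes were 2.13-fold below 50% myoblasts. Slc2a1 had first risen with confluence, by 0.41 (adjusted p = 0.0058). Its change of -0.28 from 95% to 24 h (adjusted p = 0.0377) lost its call without array 2 of the 95% stage or without array 1 or 3 of the 24 h stage (-0.27 to -0.21, adjusted p = 0.1004 to 0.1540).

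Slc2a4, the insulin-responsive transporter of muscle and fat (GLUT4), stayed near the array median until the last stage. Its 50% arrays read 6.63, 6.73 and 6.75 and its 95% arrays 6.71, 6.72 and 6.75. At 24 h it read 6.73, 6.75 and 6.84, and at 48 h 7.18, 7.10 and 6.97. The 48 h arrays were above all others, 0.38 ± 0.06 over the 50% mean (adjusted p = 1.82e-04) and 0.31 over the 24 h mean (adjusted p = 0.0012). Slc2a4 passed the filter through every stage but 50%, so a rise over that stage was partly built into its selection. Slc2a3, the high-affinity transporter best known from neurons (GLUT3), stayed between 6.73 and 6.86 on all 12 arrays. It passed no comparison, although its 0.10 with confluence did with a trended, robust variance (adjusted p = 0.0463) and, at 0.13, after centring on the kept genes (adjusted p = 0.0310).

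Hk1, the hexokinase of most tissues, rose from 8.27 ± 0.11 (SD, n = 3) at 50% to 8.61 ± 0.06 at 95% and stayed there, at 8.64 ± 0.04 and 8.67 ± 0.07 in the myotubes. The rise with confluence was 0.33 (adjusted p = 0.0014). A dimmer second probe of Hk1 gave another course, with 7.06, 7.23, 7.84 and 6.97 as the 4 stage means, so the steps through 24 h depend on the probe. Hk2, the muscle hexokinase, was not analysed here.

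Phosphofructokinase commits glucose carbon to glycolysis, and its 3 isoform genes took different courses. Pfkm, the muscle isoform, read 10.59, 10.47 and 10.46 at 50% and 11.16, 10.86 and 10.26 at 95%. It then read 12.08, 11.80 and 11.77 at 24 h and 13.37, 13.27 and 13.34 at 48 h. Myotube arrays were above all myoblast arrays and the 48 h arrays above those at 24 h, a total rise of 2.82 ± 0.17 (7.08-fold, adjusted p = 4.40e-08). The step from 95% to 24 h was 1.12 (adjusted p = 3.26e-04) and that from 24 h to 48 h 1.45 (adjusted p = 2.89e-05). With confluence the change of 0.25 did not pass (adjusted p = 0.2753), but without array 3 of the 95% stage it was 0.50 (adjusted p = 5.43e-04). Other Pfkm probes rose by 1.58 and 2.98 over the whole course, by different paths. In the same order they changed by 0.82 and -0.12 with confluence, and by 0.05 and 2.04 from 24 h to 48 h.

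Pfkp, the platelet-type isoform, and Pfkl, the liver-type isoform, rose with confluence on their brightest probes. Pfkp went from 9.43, 9.46 and 9.32 at 50% to 10.76, 10.72 and 10.43 at 95%, a change of 1.23 ± 0.09 (adjusted p = 2.86e-06). It read 10.79, 10.57 and 10.77 at 24 h and 10.29, 10.48 and 10.45 at 48 h, still 1.0 above the 50% mean (adjusted p = 1.83e-06). The fall of 0.30 in the second day of differentiation passed (adjusted p = 0.0187) but lost its call without array 1 or 3 of the 24 h stage or array 1 of the 48 h stage (-0.27 to -0.25, adjusted p = 0.0687 to 0.0836). A dimmer Pfkp probe rose by 1.57 with confluence and changed by -1.32 in the second day. It ended 0.42 above its 50% mean, so the size of the late fall depends on the probe.

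Pfkl read 11.05, 10.89 and 10.72 at 50% and 11.92, 11.82 and 11.23 at 95%. The rise was 0.77 ± 0.15 (adjusted p = 0.0014), with array 3 the lowest of its stage and still above the 50% arrays. From 11.65 ± 0.05 at 24 h Pfkl fell by 0.42 to 11.23 ± 0.05 at 48 h (adjusted p = 0.0336). That call was lost without any single array of either myotube stage, with changes of -0.44 to -0.39 and adjusted p up to 0.0970. Its excess of 0.35 at 48 h over 50% did not pass (adjusted p = 0.0603), although the arrays did not overlap, and passed without array 1 of the 50% stage (adjusted p = 0.0430) or array 1 (adjusted p = 0.0355) or 3 (adjusted p = 6.50e-04) of the 95% stage. From 95% to 24 h the difference of Pfkl was -0.0017 (adjusted p = 0.9943), but without array 3 of the 95% stage it was -0.22 (adjusted p = 0.0465). A dimmer Pfkl probe stayed between 7.16 and 7.29 in all 4 stage means.

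Pfkfb3, whose product makes the phosphofructokinase activator fructose 2,6-bisphosphate, had stage means of 6.82, 6.83, 6.93 and 6.75 and passed no comparison. Its difference of -0.18 from 24 h to 48 h (adjusted p = 0.0898) did pass without array 3 of the 95% stage (adjusted p = 0.0476), without array 3 of the 24 h stage (-0.24, adjusted p = 0.0462) and with array weights (-0.17, adjusted p = 0.0318). Aldolase cleaves fructose 1,6-bisphosphate, and Aldoa, its muscle and general isoform, rose through the course. It read 12.74, 12.50 and 12.62 at 50%, 13.31, 12.96 and 12.73 at 95%, 13.31, 13.12 and 13.20 at 24 h, and 13.79, 13.80 and 13.83 at 48 h. The 48 h arrays were above all others and agreed within 0.04. The total change was 1.19 ± 0.12 (adjusted p = 3.02e-06), of which 0.60 came in the second day (adjusted p = 0.0012). The rise of 0.38 with confluence (adjusted p = 0.0227) was lost without array 2 or 3 of the 50% stage or array 1 of the 95% stage (0.22 to 0.38, adjusted p = 0.0588 to 0.0910). Without array 3 of the 95% stage it was 0.51 (adjusted p = 3.64e-04).

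Aldoc, the brain-type aldolase, was dim and highest at 24 h. Its stage means were 6.69 ± 0.04, 6.96 ± 0.13, 7.33 ± 0.11 and 7.02 ± 0.02 (SD, n = 3), and it rose by 0.38 from 95% to 24 h (adjusted p = 0.0013) and fell by 0.31 from 24 h to 48 h (adjusted p = 0.0033). Tpi1, which interconverts the triose phosphates, rose by 0.33 with confluence (adjusted p = 0.0036) and then held its level, with means of 14.00, 14.02 and 14.05 from 95% onward. A second bright Tpi1 probe rose by 0.40 with confluence, and a dimmer probe rose by 0.74 there and fell by 0.64 from 24 h to 48 h.

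**Figure D2:**
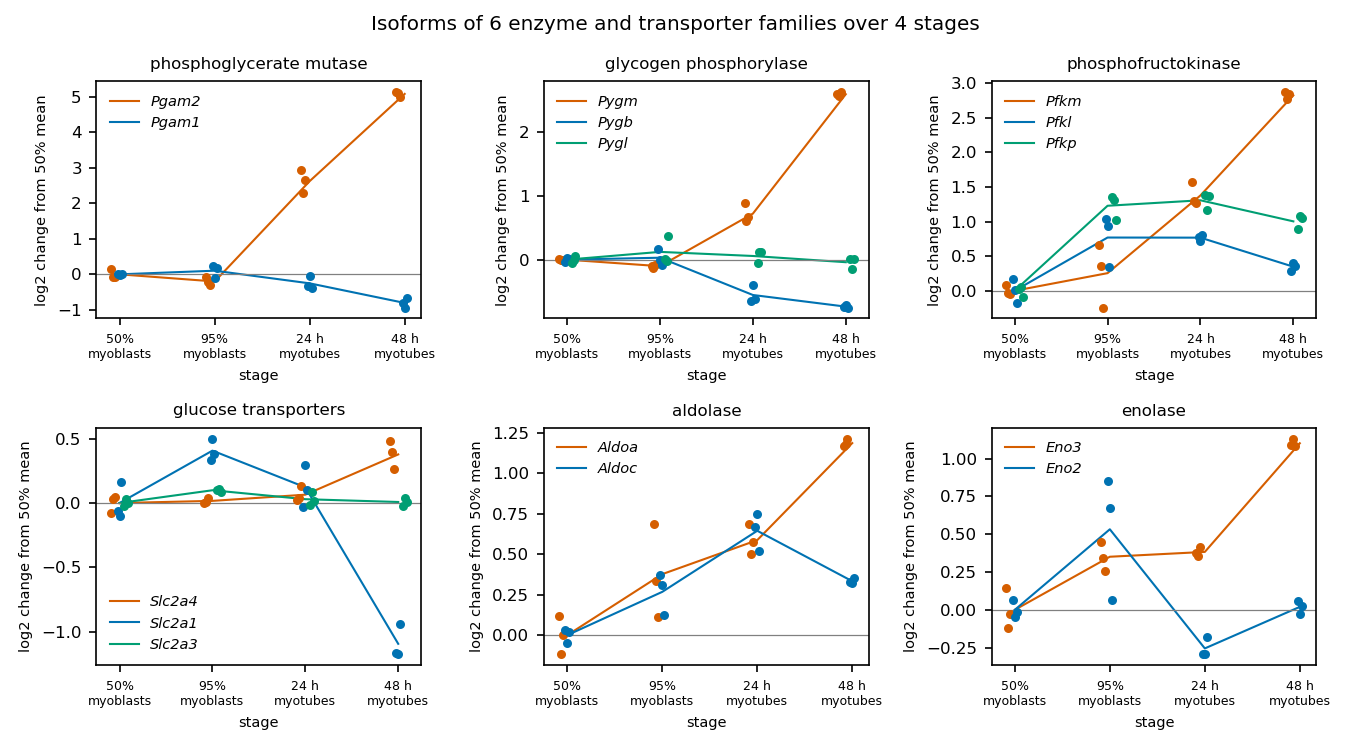
Change of isoform genes from their own mean at 50% confluence (vertical axes, log2 units, scaled separately in each panel) at the 4 stages (horizontal axes), for 6 families; points are single arrays and lines join stage means of 3 arrays. Pgam2, Pygm and Pfkm climb at 24 h and again at 48 h, while Slc2a1 and Pgam1 end below their 50% means and Pygb has dropped by 24 h.

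The lower part of glycolysis, from glyceraldehyde 3-phosphate to pyruvate, held the gene with the greatest change among the 36 members. Pgam2, the muscle phosphoglycerate mutase, read 7.14, 6.93 and 6.94 at 50% and 6.92, 6.80 and 6.70 at 95%, close to the array median. It read 9.93, 9.29 and 9.67 at 24 h and 12.13, 12.12 and 12.01 at 48 h. The rise was 2.82 ± 0.13 from 95% to 24 h (adjusted p = 2.20e-08) and 2.46 ± 0.13 from 24 h to 48 h (adjusted p = 4.50e-08). Over the whole course it came to 5.08 (33.8-fold, adjusted p = 3.88e-11), and no myotube array came near a myoblast array.

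Pgam1, the general phosphoglycerate mutase, moved the other way. It read 10.59, 10.57 and 10.61 at 50%, 10.82, 10.48 and 10.77 at 95%, 10.27, 10.54 and 10.20 at 24 h, and 9.78, 9.65 and 9.92 at 48 h. The 48 h arrays were below all others, 0.81 under the 50% mean (adjusted p = 3.61e-05), and a dimmer Pgam1 probe fell by 0.71. Its earlier change of -0.36 from 95% to 24 h (adjusted p = 0.0196) came with overlapping arrays and was lost without array 1 of the 95% stage or array 1 or 3 of the 24 h stage (-0.32 to -0.29, adjusted p = 0.0656 to 0.0870).

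The promoters of the mutase pair are shown because the genes moved in opposite directions. Each window runs from 250 bases before to 50 bases after the RefSeq gene start in GRCm38.p6, 5′ to 3′ on the gene's strand. Capitals mark CAGCTG, an E-box of the kind that MyoD-family factors can bind, and ACGTG on either strand (CACGT as printed on the other strand), the core of the hypoxia response element. Pgam2 lies on the minus strand at chr11:5803747-5804046, and Pgam1 on the plus strand at chr19:41911621-41911920.
Pgam2: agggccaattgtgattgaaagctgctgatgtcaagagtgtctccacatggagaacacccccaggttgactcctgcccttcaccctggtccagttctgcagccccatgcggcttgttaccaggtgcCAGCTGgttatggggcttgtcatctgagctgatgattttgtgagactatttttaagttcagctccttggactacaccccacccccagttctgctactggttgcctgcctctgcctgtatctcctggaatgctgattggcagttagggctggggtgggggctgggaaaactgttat
Pgam1: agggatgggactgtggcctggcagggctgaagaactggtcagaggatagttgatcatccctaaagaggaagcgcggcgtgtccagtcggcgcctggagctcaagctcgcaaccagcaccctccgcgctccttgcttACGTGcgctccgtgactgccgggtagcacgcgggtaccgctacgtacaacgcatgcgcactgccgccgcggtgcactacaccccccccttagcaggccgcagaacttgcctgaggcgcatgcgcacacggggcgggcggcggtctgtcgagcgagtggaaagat
The Pgam2 window held 1 CAGCTG and no ACGTG, and the Pgam1 window 1 ACGTG and no CAGCTG. These matches describe the windows and do not show that a factor binds there.

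Enolase forms phosphoenolpyruvate, and its muscle gene Eno3 was already bright in myoblasts. It read 13.03, 12.77 and 12.86 at 50%, 13.34, 13.23 and 13.14 at 95%, 13.26, 13.24 and 13.30 at 24 h, and 13.98, 14.02 and 13.97 at 48 h. A first rise of 0.35 came with confluence (adjusted p = 0.0018) and a second of 0.72 from 24 h to 48 h (adjusted p = 4.80e-06), with no passing change between 95% and 24 h (0.03, adjusted p = 0.7620). Eno2, the neuronal enolase, peaked at 95%, where its arrays read 9.11, 8.93 and 8.32, and fell to 7.96, 7.96 and 8.07 at 24 h. The fall was -0.79 ± 0.15 (adjusted p = 0.0013). Its rise with confluence, 0.53 (adjusted p = 0.0134), was lost without array 1 (0.37, adjusted p = 0.0503) or array 2 (0.46, adjusted p = 0.0532) of the 95% stage. Without array 3 of that stage, the lowest, the rise was 0.765 (adjusted p = 3.73e-07). At 48 h Eno2 was back at 8.27 ± 0.04, against 8.25 ± 0.06 at 50%, and its step up from 24 h (0.28) passed only without array 3 of the 95% stage (adjusted p = 0.0010) among the fits that left out an array.

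Gapdh, which makes 1,3-bisphosphoglycerate and is often used as a reference gene, rose over the course. Its stage means were 13.74 ± 0.05, 13.85 ± 0.08, 13.96 ± 0.07 and 14.11 ± 0.03 (SD, n = 3), a total of 0.37 (adjusted p = 9.54e-05). The 0.12 with confluence did not pass (adjusted p = 0.1225) but was 0.16 without array 3 of the 95% stage (adjusted p = 0.0280). Its last step of 0.15 was close to the threshold (adjusted p = 0.0439) and fell short without any 1 array of the 50% or 48 h stage or array 2 or 3 of the 24 h stage (0.11 to 0.17, adjusted p = 0.0507 to 0.1740). Pgk1, the first ATP-forming enzyme of the pathway, fell at the end instead. Its rise of 0.23 with confluence (adjusted p = 0.0409) was lost under 10 of 22 other settings. Its arrays read 12.72, 12.89 and 12.82 at 24 h and 12.30, 12.33 and 12.44 at 48 h, a fall of -0.46 ± 0.08 (adjusted p = 6.43e-04) that left it 0.42 below the 50% mean. Its difference of -0.20 from 95% to 24 h (adjusted p = 0.0798) passed without array 3 of the 95% stage (-0.25, adjusted p = 0.0295) or array 3 of the 50% stage (adjusted p = 0.0483). A dimmer Pgk1 probe also fell in the second day, by 0.36, but ended level with the 50% stage (-0.03, adjusted p = 0.7547).

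Pkm, the pyruvate kinase gene of muscle and most tissues, fell over the course from 14.14 ± 0.09 to 13.62 ± 0.08 (SD, n = 3). The change was -0.52 ± 0.06 (adjusted p = 1.85e-05), and a dim second probe fell by 0.23. With confluence the bright probe changed by -0.22 (adjusted p = 0.0174), a call lost without array 3 of the 50% stage (-0.17, adjusted p = 0.0773). Between 24 h and 48 h the bright probe fell by 0.23 (adjusted p = 0.0117), a call lost without array 2 of the 24 h stage (-0.19, adjusted p = 0.0522) or array 1 of the 48 h stage (-0.18, adjusted p = 0.0573), and the dim probe rose by 0.23. The gene is spliced into the M1 and M2 enzymes, and the files used here do not say which of them a probe reads.

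Lactate dehydrogenase turns pyruvate into lactate. Ldha, its main subunit in fast muscle, fell during differentiation. It read 13.48, 13.68 and 13.63 at 50%, 13.48, 13.44 and 13.50 at 95%, 13.24, 13.28 and 13.21 at 24 h, and 12.88, 12.89 and 12.96 at 48 h. The falls from 95% to 24 h (-0.23, adjusted p = 0.0056) and from 24 h to 48 h (-0.33, adjusted p = 3.51e-04) passed, while the change with confluence did not (-0.12, adjusted p = 0.0969) except without array 1 of the 50% stage (-0.18, adjusted p = 0.0176). The total was -0.68 ± 0.05 (adjusted p = 4.62e-07). Ldhb, the subunit of heart, stayed between 6.88 and 7.02 on all arrays and passed no comparison. Slc16a3, the lactate exporter MCT4, went from 6.84 ± 0.01 at 50% to 6.74 ± 0.02 at 48 h, a difference of -0.10 that did not pass (adjusted p = 0.0643) but did under 4 of the other settings, for example without the filter on dim probes (adjusted p = 0.0347). Slc16a1, the transporter MCT1, was below the filter, with stage means of 6.62, 6.67, 6.69 and 6.59. Fbp2, the muscle fructose bisphosphatase that reverses the phosphofructokinase step, was the muscle isoform without a passing change, with means of 6.68 to 6.74.

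Among the glycogen genes the phosphorylase isoforms also moved in opposite directions. Pygm, the muscle glycogen phosphorylase, read 6.62, 6.60 and 6.59 at 50% and 6.51, 6.47 and 6.51 at 95%, below the array median. It read 7.49, 7.21 and 7.27 at 24 h and 9.21, 9.17 and 9.23 at 48 h. The rise was 0.83 ± 0.06 in the first day (adjusted p = 1.36e-06) and 1.88 ± 0.06 in the second (adjusted p = 1.93e-09), 2.60 in all (adjusted p = 2.97e-11). Because the gene was at the bottom of the scale in myoblasts, its fold may be understated by the array. Pygm passed the filter only through the myotube stages, so a rise was partly built into its selection.

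Pygb, the brain-type phosphorylase, fell mainly in the first day. It read 9.47, 9.53 and 9.52 at 50%, 9.68, 9.51 and 9.43 at 95%, 8.85, 9.12 and 8.89 at 24 h, and 8.76, 8.80 and 8.75 at 48 h. All myotube arrays were below all myoblast arrays, with a change of -0.59 ± 0.08 from 95% to 24 h (adjusted p = 9.20e-05) and -0.74 over the course (adjusted p = 4.25e-06). The second day added -0.18, which did not pass (adjusted p = 0.0698) in the fit of all arrays. It passed without array 1 or 3 of the 95% stage or array 1 of the 24 h stage (-0.23 to -0.18, adjusted p = 0.0334 to 0.0424), with only the compared groups (adjusted p = 0.0363), with array weights (adjusted p = 0.0215) and after centring on the kept genes (adjusted p = 0.0445). Pygl, the liver-type phosphorylase, read 6.76 to 7.02 on 11 of the 12 arrays and 7.29 on array 3 of the 95% stage, and passed no comparison.

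The phosphorylase promoters are given on the same terms, with the same motifs in capitals. Pygm lies on the plus strand at chr19:6384158-6384457 and Pygb on the plus strand at chr2:150786546-150786845.
Pygm: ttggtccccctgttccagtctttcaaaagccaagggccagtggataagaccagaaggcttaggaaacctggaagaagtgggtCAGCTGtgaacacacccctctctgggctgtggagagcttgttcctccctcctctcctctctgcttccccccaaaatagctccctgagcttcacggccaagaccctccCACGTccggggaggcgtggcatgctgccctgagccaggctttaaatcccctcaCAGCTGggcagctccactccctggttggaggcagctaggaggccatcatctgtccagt
Pygb: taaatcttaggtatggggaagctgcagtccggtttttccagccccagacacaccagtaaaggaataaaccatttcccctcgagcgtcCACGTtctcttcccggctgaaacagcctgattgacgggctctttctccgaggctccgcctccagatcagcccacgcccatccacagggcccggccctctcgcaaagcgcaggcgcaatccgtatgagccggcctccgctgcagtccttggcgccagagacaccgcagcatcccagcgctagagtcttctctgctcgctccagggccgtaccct
The Pygm window held 2 CAGCTG and 1 ACGTG, and the Pygb window 1 ACGTG and no CAGCTG.

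The members of glycogen synthesis and its control follow. Ugp2, which makes the UDP-glucose from which glycogen is built, went from 8.64, 8.75 and 8.63 at 50% and 8.62, 8.54 and 8.62 at 95% to 9.07, 9.01 and 9.11 at 24 h and 9.39, 9.41 and 9.39 at 48 h. Myotube arrays lay above all myoblast arrays, and the total rise was 0.72 ± 0.05 (adjusted p = 1.15e-07). Gys1, the muscle glycogen synthase, rose by 0.40 from 7.03 ± 0.04 to 7.43 ± 0.11 (SD, n = 3, adjusted p = 2.79e-04), and a second probe by 0.32. Its rise of 0.24 in the second day (adjusted p = 0.0112) was lost without array 2 of the 24 h stage (0.21, with its adjusted p at the threshold) or array 3 of the 48 h stage (0.20, adjusted p = 0.0523). That of 0.18 with confluence (adjusted p = 0.0496) was lost without any 1 array of the 50% or 24 h stage, array 1 of the 95% stage or array 1 of the 48 h stage (0.13 to 0.20, adjusted p = 0.0563 to 0.1860).

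Phka1, the muscle regulatory subunit of phosphorylase kinase, was flat until 24 h, with means of 7.08, 7.04 and 7.08, and read 7.37, 7.66 and 7.54 at 48 h. The step was 0.44 ± 0.07 (adjusted p = 2.88e-04), and dimmer Phka1 probes near the array median gave 0.10 and -0.04. Phkg1, the muscle catalytic subunit of that kinase, and Gbe1, the branching enzyme, were below the filter with means of 6.50 to 6.58 and 6.54 to 6.65. Ppp1r3c, which targets protein phosphatase 1 to glycogen, passed no comparison, with means of 6.94 to 7.03.

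Entry of pyruvate into the citric acid cycle is gated by the pyruvate dehydrogenase complex, which its kinases (Pdk1 to Pdk4) switch off and its phosphatases switch on. Of the 7 members at this step 5 rose and 2 fell over the course, beside 26.5% and 29.9% of all genes. Pdk4, the kinase induced by fasting and fatty acids in muscle, read 9.95, 9.96 and 9.90 at 50% and 9.53, 9.37 and 9.78 at 95%. It read 7.41, 7.56 and 7.58 at 24 h and 7.47, 7.52 and 7.62 at 48 h. Myotube arrays were far below all myoblast arrays: the fall in the first day was -2.04 ± 0.09 (adjusted p = 1.52e-08), and the second day added nothing that passed (0.02, adjusted p = 0.8794). Its change with confluence was -0.38 (adjusted p = 0.0060), and -0.49 without array 3 of the 95% stage (adjusted p = 4.32e-05). Over the course Pdk4 was 5.27-fold lower (adjusted p = 8.67e-10).

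Pdk3 fell later and more evenly. It read 9.21, 9.21 and 9.25 at 50%, 9.37, 9.20 and 9.14 at 95%, 8.81, 8.80 and 8.83 at 24 h, and 8.18, 8.15 and 8.34 at 48 h. Each step of differentiation passed, with -0.42 (adjusted p = 3.12e-04) and then -0.59 (adjusted p = 1.53e-05). Pdk1, a kinase known as a target of the hypoxia factor HIF-1, was higher in myotubes than at 50%. Its arrays read 8.24, 8.05 and 8.04 at 50%, 9.16, 8.84 and 8.15 at 95%, 9.14, 9.22 and 9.13 at 24 h, and 8.78, 8.74 and 8.84 at 48 h. The change from 50% to 48 h was 0.68 ± 0.19 (adjusted p = 0.0076). The 95% arrays spread over 1.01. The rise with confluence (0.60, adjusted p = 0.0216) was lost without array 1 or 2 of that stage or array 2 or 3 of the 50% stage (0.38 to 0.57, adjusted p = 0.0684 to 0.0758). Without array 3 of the 95% stage, the lowest, that rise was 0.89 (adjusted p = 1.32e-06). The decline of 0.38 from 24 h to 48 h passed only without array 1 (adjusted p = 0.0400) or array 3 (adjusted p = 8.58e-04) of the 95% stage among the fits that left out an array. Pdk2, a kinase of most tissues, rose by 0.21 from 6.71 ± 0.07 to 6.92 ± 0.05 (SD, n = 3, adjusted p = 0.0126), a call lost without array 2 of the 50% stage (0.18, adjusted p = 0.0554) or array 3 of the 48 h stage (0.19, adjusted p = 0.0528). Its 0.15 from 24 h to 48 h (adjusted p = 0.0777) passed without array 2 (adjusted p = 0.0347) or array 3 (adjusted p = 0.0350) of the 95% stage.

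Pdp1, the calcium-stimulated phosphatase that reactivates the complex in muscle, rose. It read 7.48, 7.48 and 7.54 at 50%, 8.24, 8.11 and 7.61 at 95%, 8.95, 8.88 and 8.96 at 24 h, and 8.69, 8.43 and 8.67 at 48 h. The rise from 95% to 24 h was 0.94 ± 0.13 (adjusted p = 1.54e-04) and that over the course 1.09 (adjusted p = 1.61e-05), while a dim second Pdp1 probe moved by -0.07. With confluence Pdp1 rose by 0.48 (adjusted p = 0.0117), a call lost with only the compared groups (adjusted p = 0.0600). Without array 3 of the 95% stage that rise was 0.67 (adjusted p = 5.36e-06). The decline of 0.33 from 24 h to 48 h did not pass (adjusted p = 0.0575) but did without array 1 (adjusted p = 0.0283) or 3 (adjusted p = 8.11e-04) of the 95% stage.

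The subunits of the enzyme rose at different stages. Pdha1, the alpha subunit that the kinases phosphorylate, was level through 24 h, with means of 11.60, 11.61 and 11.62, and read 12.35, 12.11 and 12.17 at 48 h, a step of 0.58 ± 0.08 (adjusted p = 8.77e-05). Pdhb, the beta subunit, rose already with confluence, from 9.77 ± 0.13 to 10.52 ± 0.07 (SD, n = 3, adjusted p = 1.76e-05), and stood at 10.80 and 10.65 in the myotubes. With the mean of its kept probes the rise with confluence was 0.16 and did not pass (adjusted p = 0.0573). Its probes did not agree on the path: all 3 were higher at 48 h than at 50%, by 0.88, 0.50 and 0.28, but the last of these fell by 0.46 with confluence and rose by 0.99 from 24 h to 48 h.

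**Figure D3:**
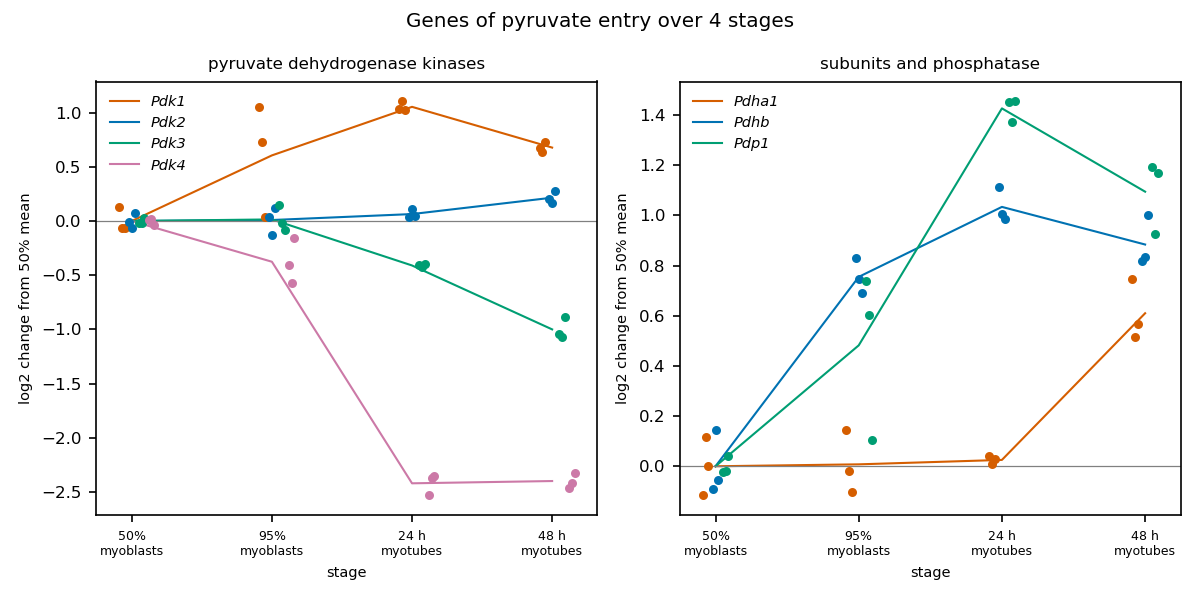
Change of the genes of the pyruvate dehydrogenase step from their own mean at 50% confluence (vertical axes, log2 units) at the 4 stages (horizontal axes), kinases on the left and subunits and phosphatase on the right; points are single arrays and lines join stage means of 3 arrays. Pdk4 drops by 24 h and stays down, Pdk3 drops in both steps, and Pdp1 and Pdk1 are highest at 24 h.

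Isoforms were compared directly by taking, on each array, the muscle gene minus the general gene and testing the 6 myotube against the 6 myoblast arrays. An exact permutation test over the arrays (two-sided, over every relabelling, with 0.0022 the smallest p it can give) was run on 11 pairs, with adjustment over the 11. The test relabels arrays freely, although each side pools different stages and arrays of the same stage may be technical replicates. A small p-value may therefore overstate the evidence for a difference between myotubes and myoblasts. The members were chosen with earlier results of these data known, so the p-values describe these pairs and lend no independent support. Only changes of the difference are read, since levels of different probes cannot be compared. The pair that moved most was Pgam2 against Pgam1, by 4.53 (exact p = 0.0022, adjusted p = 0.0040), made up of a rise of 3.95 and a fall of 0.58. Pygm moved against Pygb by 2.38 and against Pygl by 1.77, and Pfkm against Pfkl by 1.80, with the same exact p and no overlap between myotube and myoblast arrays. Pygm passed the filter only through the myotube stages, so the shift of its pairs was partly built into its selection. Pygl and, in a later pair, Slc2a3 were dim and passed no comparison as reported, so those pairs mostly restate the muscle gene.

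Pfkm against Pfkp gave 1.43 with overlapping arrays (exact permutation p = 0.0130, adjusted p = 0.0204). Relative to the 50% mean that difference was -0.97 ± 0.28 at 95%, 0.07 ± 0.15 at 24 h and 1.82 ± 0.15 at 48 h (SD, n = 3), since Pfkp had risen with confluence. Slc2a4 against Slc2a1 gave 0.90 (exact permutation p = 0.0346, adjusted p = 0.0423) and against Slc2a3 0.24 (exact permutation p = 0.0152, adjusted p = 0.0208), both carried by the 48 h arrays, where the differences were 1.47 ± 0.23 and 0.37 ± 0.12 against -0.06 ± 0.17 and 0.04 ± 0.08 at 24 h. Pfkm against Pfkp and Slc2a4 against Slc2a3 lost their call without any 1 array of the 95% stage (adjusted exact permutation p up to 0.0595 and 0.0578), and Slc2a4 against Slc2a1 without any 1 array of the 50%, 95% or 48 h stage (up to 0.1085).

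In another pair the muscle gene lost ground. Phka1 lost ground to Phka2, the liver-type subunit of phosphorylase kinase, by 0.90 (exact permutation p = 0.0022, adjusted p = 0.0040), with Phka2 higher by 1.14 and Phka1 by 0.24 in the myotubes. The difference of Ldha from Ldhb changed by -0.46 with the same p values, but Ldhb was dim and itself moved by -0.0015, so that value restates the fall of Ldha (-0.46). Aldoa against Aldoc (0.34, adjusted exact permutation p = 0.1558) and Fbp2 against Fbp1 (-0.08, adjusted exact permutation p = 0.1558) did not pass. Eno3 against Eno1, Hk2 against Hk1, Slc16a3 against Slc16a1 and Phkg1 against Phkg2 were not tested, since a partner had no probe or lay below the filter.

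**Figure D4:**
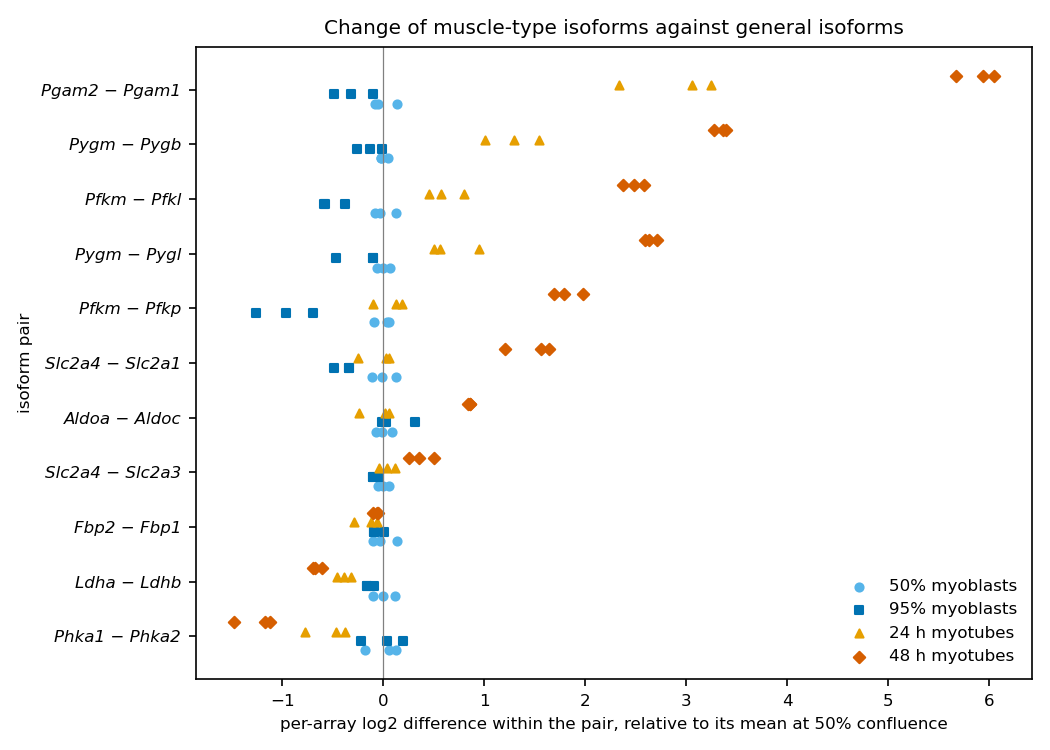
Difference between paired isoforms (muscle-type minus general, horizontal axis, log2 units, relative to the pair's mean at 50% confluence) for 11 pairs (vertical axis); each point is an array and each symbol a stage. Pgam2, Pygm and Pfkm move to the right against their partners at 48 h, and Ldha and Phka1 move to the left.

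Over the promoters of all members, 39 had a window in the RefSeq table. A gene was counted if any of its windows held the motif, so genes with more windows had more chances of a match. CAGCTG, whose complement is the same sequence, occurred in 12 of the 39 (30.8%), beside 18.3% of 27025 genes and 18.5% of 9591 tested genes. Among the muscle isoforms it occurred in 6 of 9: Pgam2, Eno3, Fbp2, Gys1, Phka1 and Pygm. ACGTG on either strand occurred in 23 of the 39 (59.0%), beside 21.8% of all genes and 28.5% of tested genes, and in 4 of the 9 muscle isoforms. The MEF2 consensus, searched on both strands, occurred in none of the 39 and in 0.636% of all genes. The members were chosen as known pathway genes, with earlier results of these data known, and these shares are a description with no test.

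Genes of the same pathways outside the 42 were read from lists named for their roles. Of 24 other glycolysis genes 12 were tested, and over the whole course 3 rose and 3 fell (25% each, beside 26.5% and 29.9% of all genes), with a median of -0.05. The rise of Slc2a6, a transporter of the same family found on lysosomes, was as steep as that of Pgam2: it read 7.16, 6.99 and 7.01 at 50% and 12.30, 12.31 and 12.21 at 48 h, a change of 5.22 ± 0.14 (adjusted p = 5.91e-11), and 10.35 ± 0.33 at 24 h. Pfkfb2 rose by 0.36. Adpgk, the ADP-dependent glucokinase, fell by 0.84 (adjusted p = 3.83e-06) and G6pc3, a glucose 6-phosphatase of most tissues, by 0.43.

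Of 23 other glycogen genes 18 were tested, and 10 rose (55.6%, beside 26.5% of all genes) and none fell (29.9% of all genes) over the course, with a median of 0.34. Phka2 went from 8.31 ± 0.08 at 50% to 10.02 ± 0.07 at 48 h (SD, n = 3), a rise of 1.70 (adjusted p = 8.43e-08). Stbd1, which tethers glycogen to membranes, rose by 1.17 (adjusted p = 8.46e-09). Other rises were those of Gaa, the lysosomal glycogen-degrading enzyme (1.05), Phkb, the beta subunit of phosphorylase kinase (0.94), and Pgm1, which links glucose 1-phosphate and glucose 6-phosphate (0.87). Ppp1cb, a catalytic subunit of protein phosphatase 1, was high only in between: its means were 8.60, 9.32, 9.69 and 8.57, with a fall of 1.12 from 24 h to 48 h (adjusted p = 1.60e-06).

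Of 24 other pyruvate genes 13 were tested, with 7 rises (53.8%, beside 26.5% of all genes) and 4 falls (30.8%, beside 29.9%) and a median of 0.31. Gpt2, the mitochondrial enzyme that interconverts pyruvate and alanine, read 9.39, 9.39 and 9.41 at 50% and 9.01, 9.14 and 8.86 at 95%. It reached 11.29, 11.04 and 11.08 at 24 h and 11.91, 12.10 and 11.72 at 48 h, 2.51 ± 0.10 above the start (adjusted p = 1.25e-09). Its cytosolic counterpart Gpt ended 0.91 above its 50% mean after a lower level in between. Its stage means were 8.05, 7.92, 7.74 and 8.96, with a rise of 1.22 in the second day (adjusted p = 4.25e-07). Pcx, which carboxylates pyruvate to oxaloacetate, and Pdp2, the second phosphatase of the dehydrogenase, each rose by 0.64. Me2, the mitochondrial malic enzyme, fell by 1.32 (adjusted p = 1.77e-07), and Emb, an accessory protein of monocarboxylate transporters, by 1.15 (adjusted p = 1.70e-08).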

How the data were processed

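The deposited table holds the authors' normalized log2 signal for 45281 probes on 12 arrays, and the submitters' processing notes name RMA and lumi without role, order or version. Ranked values of its columns differ by at most 0.003, which quantile normalization would give. A plain log2 and a variance-stabilized scale could not be told apart. A table of signal before normalization was not used, because its 24 value columns match no sample by name. Depth has no meaning for arrays, and their number limits the precision.

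Probes stayed in if, in some stage, all 3 arrays read them above their own median, and the brightest such probe stood for its gene. A limma 3.58.1 model (R 4.3.3, lmFit and eBayes, 8 residual and 3.59 prior degrees of freedom) gave a mean per stage from 12 arrays, and p-values were adjusted over all 11883 genes by Benjamini-Hochberg, two-sided, with a threshold of 0.05. The fit was tested on simulated data. This fit takes a common spread for all stages, although the 95% arrays varied more. Isoform pairs used exact permutation tests in Python 3.11.15 with scipy 1.17.1. Promoter windows are RefSeq's for GRCm38.p6. Members and lists were chosen with earlier results of these data known. All members are named; from each list of other pathway genes those with the largest passing rises and falls (up to 2 each way per comparison) could be named, and the text gives the clearest, with Phkb, Pgm1, Gaa, Gpt, Pcx and Pdp2 for their roles.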

Additional observations from a re-analysis of the deposited data

How the results depend on the processing

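Of the members called, 26 of 27 kept their call in every alternative and left-out array that measured them for 48 h against 50% (the exception was Pdk2), 15 of 20 for 48 h against 24 h, 11 of 14 for 24 h against 95%, and 8 of 16 for 95% against 50%. Averaging all kept probes of a gene reversed the change from 24 h to 48 h for Hk1 (-0.42, adjusted p = 1.30e-04), Tpi1 (-0.21, adjusted p = 0.0014), Pdhb (0.26, adjusted p = 0.0058) and Pkm (0.0027, adjusted p = 0.9704), because their probes disagree, and took Pfkm against Pfkp to 1.30 (adjusted exact permutation p = 0.0529). With array weights 14 members fell from 24 h to 48 h in place of 9, and 1 fell from 50% to 95% in place of 2. Fitting only the compared groups left 8 rises and 1 fall from 50% to 95%. Leaving out single arrays gave 9 to 16 rises there (9 without array 1 of the 95% stage) and 1 to 3 falls (1 without array 3 of the 50% stage). It gave 0.71 to 1.09 for Slc2a4 against Slc2a1, 1.23 to 1.64 for Pfkm against Pfkp and 0.18 to 0.29 for Slc2a4 against Slc2a3. With single arrays left out, genes called ranged over 3578 to 4679 for 24 h against 95%, 4560 to 6269 for 48 h against 24 h, 6171 to 7267 for 48 h against 50% and 3848 to 5826 for 95% against 50%. Under the other settings they ranged over 3272 to 4508, 4497 to 6670, 5646 to 7465 and 3250 to 5387 in the same order. Same-numbered replicates deviated together at correlations of -0.0907 to 0.333 (median 0.0477), and differently numbered ones at -0.349 to 0.213 (median -0.0218). These ranges overlap, so they do not settle whether the numbers pair the samples. With the replicate block 7 members rose and 7 fell (24 h against 95%), 10 and 9 (48 h against 24 h), 20 and 8 (48 h against 50%), and 13 and 2 (95% against 50%). That fit called 4452, 5388, 6721 and 4781 genes in the same order. Other causes of change were not tested. Background correction from raw signal, detection calls and slide as a block were not run, since the columns of the raw table match no sample.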

Other observations

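Many glycolytic genes are also targets of the hypoxia factor HIF-1, and 16 of 18 hypoxia response genes outside glycolysis were tested. Over the whole course 6 rose and 3 fell (median 0.10), beside 26.5% and 29.9% of all genes. Hif1a, which encodes the oxygen-regulated subunit of the factor, read 8.05, 8.07 and 8.20 at 50%, 8.97, 8.83 and 8.66 at 95%, 8.85, 8.98 and 9.04 at 24 h, and 8.03, 7.96 and 8.17 at 48 h. It was highest in the 2 middle stages: it rose by 0.71 from 50% to 95% (adjusted p = 6.77e-05) and fell by 0.90 from 24 h to 48 h (adjusted p = 4.45e-06). Ndrg1, a stress-response gene, had the same shape, with means of 9.10, 9.68, 9.96 and 9.27. P4ha1, a collagen prolyl hydroxylase, had a similar one, with 8.69, 9.23, 9.51 and 9.06, and stayed above its 50% arrays at 48 h. Its 95% arrays read 9.63, 9.27 and 8.80, with array 3 close to the 50% arrays.

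Other genes of that list did not follow this shape. Vegfa, the endothelial growth factor, was lowest in the middle, with means of 11.47, 10.47, 10.50 and 11.24 and a change of -1.0 with confluence (adjusted p = 4.95e-04). Ddit4, an inhibitor of mTORC1, rose by 1.0 over the course (adjusted p = 8.84e-06), Kdm3a, a histone demethylase, by 0.85 and Egln3, an oxygen-sensing prolyl hydroxylase, by 0.76. Hilpda, a lipid droplet protein, fell by 1.10 (adjusted p = 1.01e-06) and Bnip3l, a mitophagy receptor, by 0.63. Whether these changes bear on those of the glycolytic members was not tested.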
